A study of Mus musculus with 9 samples.

Results

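The colons of mice given dextran sulfate sodium (DSS) differed widely in how much of the epithelial microRNA signal they held, and the 6 libraries from DSS-exposed colons, of 9 libraries in all, are described here along that gradient. The RJA group (3 libraries) had 2.5% DSS in the drinking water and daily gavage of royal jelly acid (RJA), 10 mg/kg in a volume of 0.2 mL. The DSS group (3 libraries) had 2.5% DSS in the water and no recorded gavage, so RJA and gavage cannot be told apart. The Control group (3 libraries) had plain water, and all mice were wild-type C57BL/6J on a normal diet. Each library was given a score, the mean log2(TPM + 1) of 8 epithelial miRNAs (miR-192-5p, miR-194-5p, miR-215-5p, miR-200a-3p, miR-200b-3p, miR-200c-3p, miR-141-3p and miR-429-3p), where TPM is the count of a miRNA per 1000000 counts of its library, with no length term. Their place in the order was thus chosen by the measured levels of these miRNAs, and every other miRNA was set against the score. The levels of the 8 miRNAs are the basis of the order and carry no test against it. Ratios that include them were tested only between RJA and DSS. The labels name no animals, so every p-value here reflects only how far these samples spread, and how long DSS was given is not stated in the labels.

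miRNAs are short RNAs that lower the output of messenger RNAs that pair with their seed, the bases near their 5′ end. miR-192, miR-194 and miR-215 are abundant in intestinal epithelium, where the hepatocyte nuclear factors that govern enterocyte genes drive them. The miR-200 family (miR-200a, miR-200b, miR-200c, miR-141 and miR-429) keeps cells in the epithelial state by holding down the repressors ZEB1 and ZEB2. DSS in drinking water damages the mucosa of the colon and is a standard means of producing colitis in rodents. The libraries came from bulk colon, in which fewer cells of a type and less RNA per cell cannot be told apart.

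The mature sequences of the 8 score miRNAs are shown because their seeds divide them into 4 sets, which the 2 gene families of the score do not show by name. All are from RefSeq (GRCm38.p6), 5′ to 3′, with bases 2 to 8 in capitals.
miR-192-5p: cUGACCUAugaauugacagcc
miR-215-5p: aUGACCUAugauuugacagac
miR-194-5p: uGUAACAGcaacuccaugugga
miR-200b-3p: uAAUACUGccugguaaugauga
miR-200c-3p: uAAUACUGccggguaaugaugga
miR-429-3p: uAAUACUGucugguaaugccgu
miR-200a-3p: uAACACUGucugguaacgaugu
miR-141-3p: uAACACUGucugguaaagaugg
miR-192-5p and miR-215-5p share the seed UGACCUA, miR-200b-3p, miR-200c-3p and miR-429-3p share AAUACUG, and miR-200a-3p and miR-141-3p share AACACUG. In the genome the sets are mixed. miR-194-5p and miR-215-5p are encoded together on the plus strand of chromosome 1 (chr1:185313325-185313346 and chr1:185313610-185313630), and a further copy of miR-194-5p lies beside miR-192-5p on the plus strand of chromosome 19 (chr19:6264658-6264679 and chr19:6264857-6264877). On the minus strand of chromosome 4 lie miR-429-3p (chr4:156053916-156053937), miR-200a-3p (chr4:156054911-156054932) and miR-200b-3p (chr4:156055685-156055706). miR-141-3p (chr6:124717917-124717938) and miR-200c-3p (chr6:124718324-124718346) lie on the minus strand of chromosome 6.

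The order from lowest to highest score mixed the treatments. The score was 8.48 in DSS 1, 8.66 in RJA 3, 9.01 in DSS 3, 10.62 in DSS 2, 10.94 in RJA 2 and 11.66 in RJA 1, against 11.76, 11.68 and 11.87 in Control 1 to 3. The geometric mean level of the 8 miRNAs was 9.75-fold below the Control mean in DSS 1 and 1.08-fold below it in RJA 1, and RJA 1 fell just short of the lowest Control library. RJA held both the library closest to Control and the second lowest of all. The groups averaged 10.42 ± 1.57 in RJA, 9.37 ± 1.11 in DSS and 11.77 ± 0.09 in Control (SD, n = 3 each), so the spread within each exposed group was more than the distance between the RJA and DSS means. The neighbours in the order lay 0.18, 0.35, 1.61, 0.32 and 0.72 apart. The largest gap separated DSS 3 from DSS 2 and exceeded the ranges of the 3 libraries below it (0.53) and of the 3 above it (1.04), so a smooth gradient and a step between a low and a high trio cannot be told apart with 6 libraries. Wherever 6 values stand in a row below, they are in this order: DSS 1, RJA 3, DSS 3, DSS 2, RJA 2, RJA 1.

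**Figure D1:**
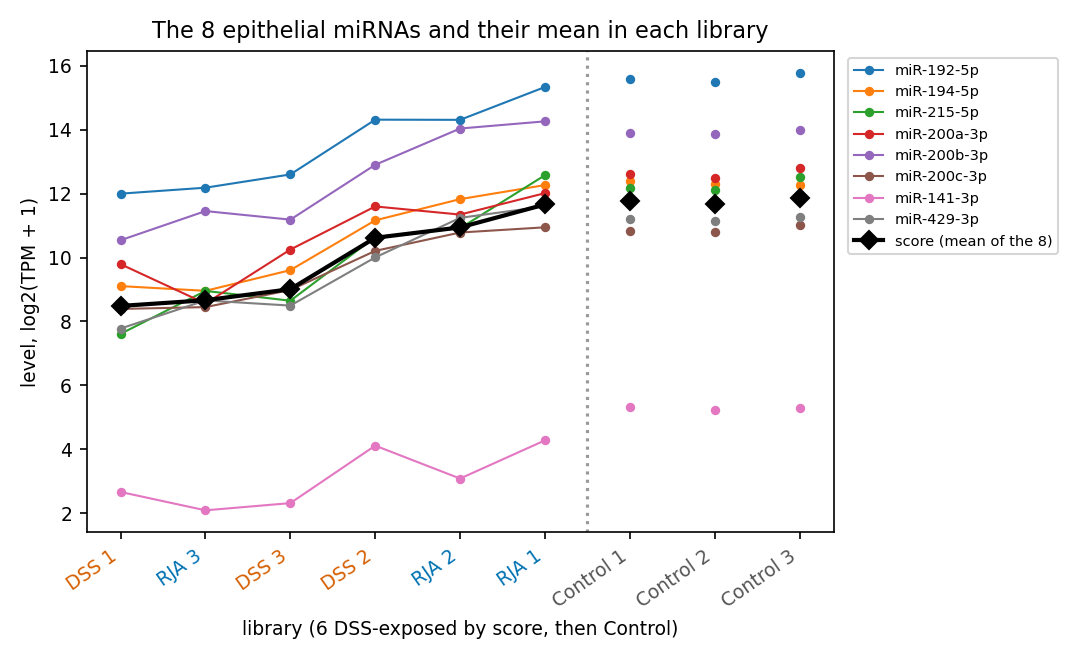
Level of each of the 8 epithelial miRNAs (coloured points, log2(TPM + 1)) and their mean, the score (black diamonds), in the 6 DSS-exposed libraries from lowest to highest score and in the 3 Control libraries. Lines join the exposed libraries as a guide; the score ran from 8.48 in DSS 1 to 11.66 in RJA 1, and the Control libraries lay between 11.68 and 11.87.

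Total counts were 5985153 to 7568298 in the exposed libraries and 7057285 to 8280980 in Control, and along the order they were 7330731, 6164500, 7568298, 6453813, 6167263 and 5985153. The 3 highest-scoring libraries were thus among the 4 with the fewest counts, and the part of depth in the results was not tested. The 8 miRNAs took 0.777, 0.958, 1.18, 3.72, 4.95 and 8.13% of the counts in the exposed libraries, against 8.49, 8.09 and 9.54% in Control. Most counts in every library came from miR-143-3p, an abundant miRNA of smooth muscle, at 67.2 to 75.5% in exposed and 66.4 to 70.9% in Control libraries. The scaling factors of the TMM method, which adjusts library sizes for a few dominant RNAs, were 0.938 to 1.17 in exposed and 0.851 to 0.919 in Control libraries.

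All 8 score miRNAs were highest in RJA 1 among the exposed libraries and lowest in DSS 1 or RJA 3. miR-192-5p, the most abundant, had 4092, 4656, 6208, 20377, 20300 and 41375 TPM, against 48921, 46622 and 56543 TPM in Control. It was lowest in DSS 1 at 8.07% of the Control mean and reached 81.6% of it in RJA 1. miR-200b-3p had 1489, 2803, 2327, 7655, 16817 and 19644 TPM, against 15396, 14924 and 16392 TPM in Control. Its levels in RJA 2 and RJA 1 were above all 3 Control libraries, and those in the other 4 were below them. miR-215-5p had the widest range, 194.4, 495, 400, 1595, 1932 and 6106 TPM, against 4666, 4453 and 5924 TPM in Control, a 31.4-fold difference between the highest and lowest exposed library. miR-141-3p was the scarcest, with 5.32, 3.24, 3.96, 16.3, 7.46 and 18.4 TPM from 20 to 110 reads, against 39.0, 36.7 and 38.1 TPM in Control. Its highest exposed library reached 48.4% of the Control mean, the lowest such share of the 8. The ranges of the others were 14.2-fold (miR-429-3p), 13.2-fold (miR-200b-3p), 10.99-fold (miR-200a-3p), 10.1-fold (miR-192-5p), 9.94-fold (miR-194-5p), 5.89-fold (miR-200c-3p) and 5.66-fold (miR-141-3p).

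The ratios between score miRNAs did not enter the score, but they are formed from the levels that did, so they are no support for the order. Of the 28 ratios between a pair of them, 16 (57.1%) had RJA and DSS libraries that did not overlap, where 14.2% of the 29890 ratios between all miRNAs with a mean of at least 10 TPM and the score miRNAs did so. The 28 ratios share 8 miRNAs and are not independent. An exact permutation test of 3 against 3 cannot give a p under 0.1, and adjusted over the 28 the smallest p was 0.175, so none of these differences passed. Of the 7 ratios with miR-200a-3p, 6 did not overlap. The ratio of miR-200a-3p to miR-200b-3p, which lie within the same cluster on chromosome 4, was 0.211, 0.155 and 0.134 in RJA 1 to 3, against 0.594, 0.405 and 0.522 in DSS 1 to 3, and 0.408, 0.389 and 0.431 in Control 1 to 3. All 3 RJA libraries, from the second lowest to the highest score, thus lay below all DSS and Control libraries, a log2 difference of -1.62 between the RJA and DSS means (exact two-sided p = 0.1, adjusted p = 0.175). The ratio of miR-200b-3p to miR-429-3p, also of this cluster, stayed between 6.32 and 7.47 in all 9 libraries while their levels changed 13.2- and 14.2-fold. miR-192-5p and miR-215-5p, which share a seed and come from different chromosomes, had a ratio of 6.78 to 10.51 in RJA, 12.8 to 21.0 in DSS and 9.54 to 10.48 in Control. Here DSS lay above both other groups, and RJA overlapped Control.

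The arms of a precursor also differed in their ratio. The 5p arm of miR-200a stood at 0.319, 0.378 and 0.781 of the 3p arm in RJA 1 to 3, against 0.174, 0.178 and 0.163 in DSS 1 to 3 and 0.172, 0.179 and 0.159 in Control 1 to 3. RJA was above both other groups without overlap, and DSS and Control overlapped. The 5p arm of miR-200b, by contrast, stood at 0.0140 to 0.0211 of its 3p arm in RJA and 0.0125 to 0.0214 in DSS, which overlapped. Of the 8 arm ratios, 3 did not overlap between RJA and DSS, as did 10 of the 100 ratios of the 5p to the 3p arm in other hairpins with both arms tested and read in all 6 libraries (10%): those of miR-200a, of miR-194-1 and of miR-200c, the last from at most 16 reads of the 5p arm in an exposed library. Each had an exact permutation p of 0.1 and an adjusted p of 0.267. For miR-194-1 and miR-194-2 the 5p arm, miR-194-5p, is encoded by both copies, on chromosomes 1 and 19. Its reads cannot be assigned to either copy, so those ratios are not within a single precursor. What sets these ratios was not tested.

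**Figure D2:**
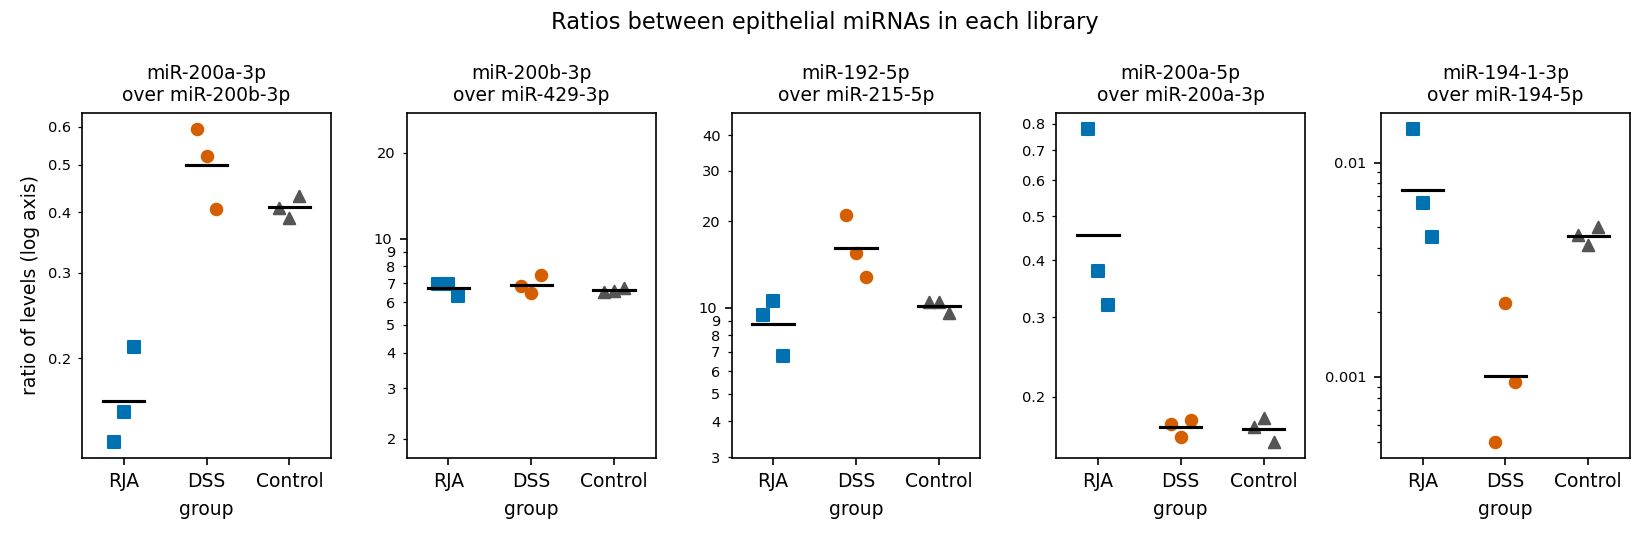
Ratios between the TPM levels of 2 epithelial miRNAs in each library (log axes), in RJA, DSS and Control; points are libraries, from the lowest to the highest score within RJA and DSS and in replicate order in Control, and bars are geometric means. The ratio of miR-200a-3p to miR-200b-3p is 0.134 to 0.211 in RJA and 0.389 or more elsewhere, while that of miR-200b-3p to miR-429-3p stays between 6.32 and 7.47 in all 9.

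Which other miRNAs went with the score was asked by fitting the counts of the 6 exposed libraries to it (edgeR quasi-likelihood test, 4 residual degrees of freedom). A slope is the log2 change of a miRNA per unit of score, so a slope of 1 means that it changed about as the geometric mean of the 8 did. The match is not exact, because the score is in TPM and the slopes are fitted with TMM scaling. Among the 410 miRNAs tested besides the 8, 24 rose with the score (5.85%) and 16 fell with it (3.90%) at a Benjamini-Hochberg adjusted p under 0.05. Slopes were positive for 170 and negative for 240, and their median was -0.05. With treatment as a term in the fit, all 40 kept their sign, and 28 remained called. The 12 lost were miR-130b-5p, miR-148a-5p, miR-1968-5p, miR-378a-3p, miR-378a-5p and miR-6538 among the rises and miR-142a-5p, miR-212-3p, miR-214-5p, miR-342-3p, miR-3535 and miR-382-5p among the falls, at adjusted p of 0.0524 to 0.219. That fit called 18 rises (4.39%) and 10 falls (2.44%) of the 410. The count of falls was 2 without RJA 1, 4 without DSS 1, 6 without RJA 2 and 7 without RJA 3, while that of rises was 16 to 29 without each library in turn. Their slopes kept their sign in each of these fits.

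**Figure D3:**
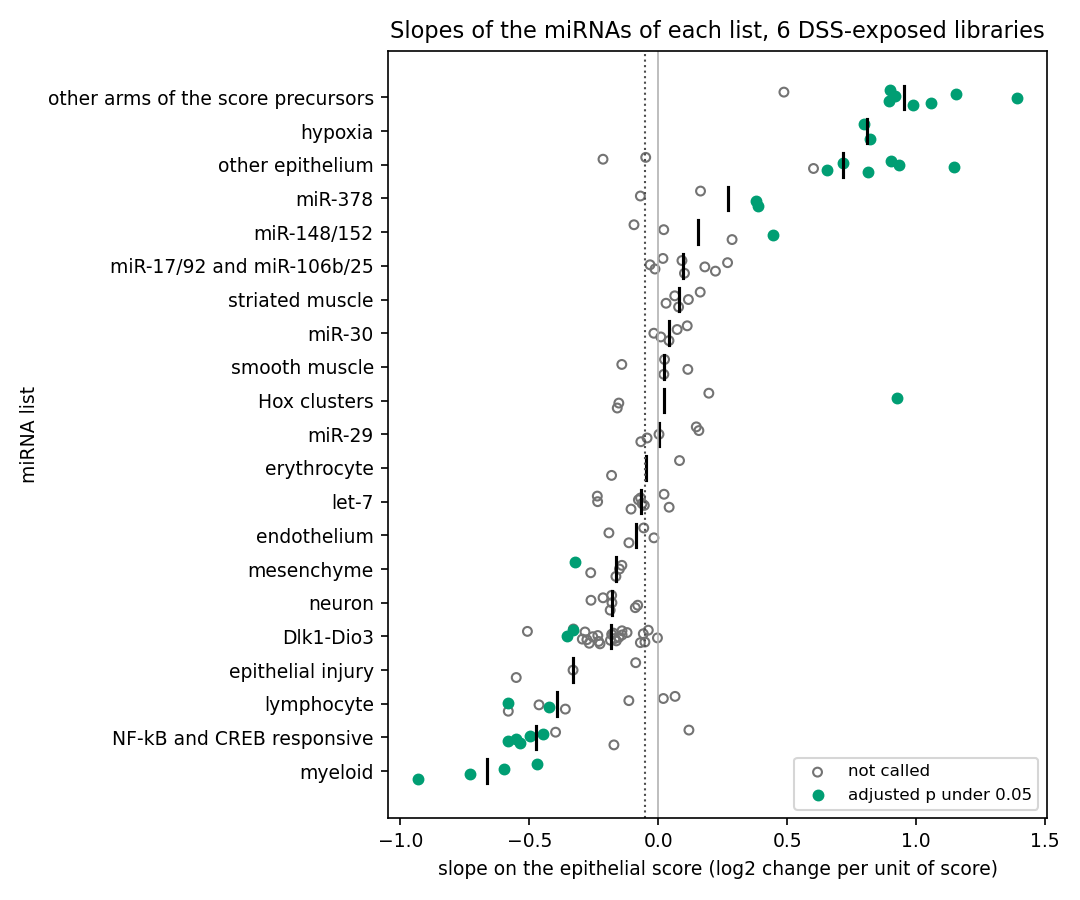
Slope on the epithelial score (log2 change per unit of score, 6 DSS-exposed libraries) of each tested miRNA in 21 lists; filled points passed at an adjusted p under 0.05, bars are list medians, and the dotted line is the median of all 410 tested, -0.05. The other arms of the score precursors have the highest median (0.95) and the myeloid list the lowest (-0.66).

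The opposite arms of the score precursors each come from the same hairpin as a score miRNA and are not independent genes. Their rise with the score is thus a description and no support for the order. Of the 8 tested, 7 rose, none fell, and the median slope was 0.95, against -0.05 over all tested. miR-215-3p had 4.64, 19.0, 17.2, 54.2, 155 and 163 TPM in the exposed libraries, against 131, 133 and 170 TPM in Control, a slope of 1.39 ± 0.16 (SE; edgeR adjusted p = 1.25e-05). Its 2 highest libraries reached Control levels and DSS 1 was far below all others. miR-200b-5p had 27.4, 39.3, 49.8, 95.8, 355 and 279 TPM, against 209.8, 194.1 and 203.5 TPM in Control, a slope of 1.16 ± 0.14 (adjusted p = 1.31e-05). Here RJA 1 and RJA 2 exceeded all Control libraries. miR-200a-5p (0.92 ± 0.12), miR-192-3p (0.99 ± 0.15, a mean under 10 TPM), miR-141-5p (0.90 ± 0.13) and miR-194-2-3p (0.89 ± 0.17) also rose. miR-200c-5p, with 1 to 16 reads in the exposed libraries, had a slope of 0.49 ± 0.32 that did not pass (adjusted p = 0.444). It was 1.21 without RJA 3 (adjusted p = 0.0683), 0.32 without RJA 1 (adjusted p = 0.930) and 0.16 with treatment as a term (adjusted p = 0.834). miR-194-1-3p had 0.273, 7.14, 1.72, 2.17, 23.5 and 22.2 TPM, against 24.6, 20.8 and 24.9 TPM in Control, and a slope of 1.06 ± 0.28 (adjusted p = 0.0223). Its RJA libraries all lay above its DSS libraries. That call was lost without DSS 1, RJA 1 or RJA 2 (slopes 0.84, 1.05 and 0.94; adjusted p = 0.0847, 0.286 and 0.194) and in DESeq2 (adjusted p = 0.296). The slope was 1.86 without RJA 3 (adjusted p = 0.00293) and 0.65 with treatment as a term (adjusted p = 0.0454).

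The list of other epithelial miRNAs held 9 tested members, of which 6 rose and none fell, with a median slope of 0.72. They include the cluster of miR-183, miR-96 and miR-182 on the minus strand of chromosome 6, best known from sensory organs and also found in epithelia, whose 5p arms are shown because their seeds differ by little.
miR-183-5p: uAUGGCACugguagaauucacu
miR-96-5p: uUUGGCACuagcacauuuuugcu
miR-182-5p: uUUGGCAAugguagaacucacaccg
miR-183-5p had 151, 231, 264, 514, 1130 and 1157 TPM, against 916, 949 and 938 TPM in Control (slope 0.93 ± 0.11, adjusted p = 1.31e-05). It rose at every step of the order, and RJA 2 and RJA 1 were above all Control libraries. miR-182-5p (0.90 ± 0.11) and miR-96-5p (0.72 ± 0.11, adjusted p = 0.000205), from the same cluster, rose as well. miR-375-3p, a miRNA of goblet and neuroendocrine cells, had 948, 288, 1827, 2204, 3750 and 3983 TPM, against 2155, 2063 and 2599 TPM in Control (slope 0.81 ± 0.16, adjusted p = 0.00179). RJA 3 was below the other 5, and RJA 2 and RJA 1 were above all Control libraries. miR-205-5p (1.15 ± 0.17), a miRNA of stratified epithelia with a mean under 10 TPM, and miR-203-3p (0.65 ± 0.10), known to promote differentiation in skin, rose too. The other 3 did not pass: miR-203-5p at 0.60 ± 0.21 (adjusted p = 0.0947), miR-7b-5p at -0.05 ± 0.13, and miR-7a-5p, of endocrine cells, at -0.21 ± 0.12 (-0.07 without RJA 1 and -0.10 without DSS 1). miR-7a-5p had 3521, 2425, 1692, 2817, 2096 and 1143 TPM, against 956, 1256 and 1785 TPM in Control, and was highest in DSS 1 and lowest in RJA 1 among the exposed libraries.

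miRNAs reported to rise in injured epithelium had no call for their slope. Of 3 tested members none passed. All 3 slopes were negative, as were 240 of the 410 tested, and the median was -0.33. miR-135b-5p had slopes of -0.59 to -0.02 in 17 other fits and passed in none. miR-21a-5p, the second most abundant miRNA, had 132911, 134674, 69625, 123766, 88151 and 87105 TPM, against 65425, 76265 and 94339 TPM in Control (slope -0.09 ± 0.09, adjusted p = 0.674). Its exposed and Control libraries overlapped. miR-31-5p, known to rise in inflamed bowel, was scarce, at 2.46, 1.62, 1.98, 1.24, 1.62 and 0 TPM, against 0.133, 0.483 and 0.283 TPM in Control (slope -0.55 ± 0.31, adjusted p = 0.370). RJA 1 had 0 reads of it, a count that allows up to 3 reads by counting error alone, and the other 5 exposed libraries were above all Control libraries.

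Outside the epithelial lists, rises were found in the lists of the Hox clusters, of hypoxia and of the miR-378 and miR-148 families, and among miRNAs in no list. miR-196a-5p is encoded within the Hox clusters on chromosomes 11 and 15. Its sequence is shown with that of miR-210-3p, a miRNA that HIF-1 switches on in hypoxia and the one that the title of the series names.
miR-196a-5p: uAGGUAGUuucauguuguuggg
miR-210-3p: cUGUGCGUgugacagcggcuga
miR-196a-5p had 24.0, 24.0, 27.7, 71.7, 131 and 135 TPM, against 114, 120 and 118 TPM in Control (slope 0.92 ± 0.10, adjusted p = 1.25e-05), and miR-196a-1-3p, of its chromosome 11 precursor, had a slope of 0.89 ± 0.10. The 3 low-scoring libraries were close to each other and far below the rest. miR-196b-5p, which has the same seed, had 202.6, 144, 151, 202, 228 and 229 TPM and did not pass (0.20 ± 0.10, adjusted p = 0.274). The other members of the Hox list, miR-10a-5p and miR-10b-5p, had slopes of -0.16 ± 0.10 and -0.15 ± 0.11, so 1 of the 4 in the list rose and the median was 0.02. miR-210-3p had 11.3, 29.0, 27.7, 40.1, 82.7 and 111 TPM, against 89.6, 77.5 and 67.4 TPM in Control (slope 0.82 ± 0.13, edgeR adjusted p = 0.000199). It was called in all 18 other fits, at slopes of 0.67 to 1.12. RJA 3 was at the level of DSS 3, and RJA 1 was above all Control libraries. miR-210-5p, at 2.46 to 19.9 TPM in the exposed libraries, rose with it (0.80 ± 0.15, adjusted p = 0.00112).

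miR-378a, which lies in an intron of the gene of the metabolic coactivator PGC-1β, rose in both arms, by slopes less than those of the epithelial miRNAs. miR-378a-3p had 4559, 5155, 7432, 7307, 10913 and 10732 TPM, against 10861, 10306 and 11566 TPM in Control (0.39 ± 0.09, adjusted p = 0.0104), and miR-378a-5p had a slope of 0.38 ± 0.11 (adjusted p = 0.0432). The call of the 3p arm was lost without DSS 1 or RJA 1 (0.35 and 0.39; adjusted p = 0.0847 and 0.105) and that of the 5p arm without DSS 1, RJA 1, RJA 2 or RJA 3 (0.31 to 0.43; adjusted p = 0.0925 to 0.259). Of the 4 tested in this family 2 rose, and the median was 0.27. In the miR-148 and miR-152 family 1 of 4 rose, with a median of 0.15. It was miR-148a-5p (0.44 ± 0.13, adjusted p = 0.0394), whose call was lost without DSS 1, RJA 1 or RJA 2 (0.37, 0.30 and 0.48; adjusted p = 0.185, 0.823 and 0.160). Its slope was 0.69 without RJA 3 (adjusted p = 0.00327). The abundant arm, miR-148a-3p, a miRNA of liver and gut, had 7173, 5008, 3102, 6385, 5055 and 11442 TPM, against 11300, 11725 and 13347 TPM in Control (0.29 ± 0.12, adjusted p = 0.192). With no low-count filter it passed (0.29, adjusted p = 0.0350), and its slope was 0.02 without RJA 1 (adjusted p = 0.987) and 0.46 without DSS 1 (adjusted p = 0.0504). Here RJA 1 alone of the exposed libraries was within the Control range.

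The largest falls with the score were in the myeloid list, in which all 4 tested members fell, against 3.90% of the 410 tested, and the median slope was -0.66. The 4 are both arms of miR-223 and both arms of miR-142a, so they are not independent. miR-223-3p, abundant in neutrophils, had 105, 105, 122, 41.2, 22.4 and 13.5 TPM, against 11.7, 11.1 and 10.2 TPM in Control (slope -0.93 ± 0.11, adjusted p = 1.31e-05). All exposed libraries were above all Control libraries, and RJA 1 was close to them. miR-223-5p, at 30.7, 28.6, 18.8, 11.2, 9.57 and 4.34 TPM, fell at every step of the order (-0.73 ± 0.12, adjusted p = 0.000216). miR-142a, expressed in all blood cell lineages, fell in both arms. miR-142a-3p had 51.8, 37.0, 16.1, 22.5, 15.1 and 7.35 TPM, against 10.1, 17.5 and 16.4 TPM in Control (-0.60 ± 0.14, adjusted p = 0.00615), and miR-142a-5p had a slope of -0.47 ± 0.12 (adjusted p = 0.0181). For miR-142a-3p, DSS 1, RJA 3 and DSS 2 were above all Control libraries and RJA 1 was below all of them. The calls of miR-142a-3p and miR-142a-5p were lost without DSS 1, RJA 1, RJA 2 or RJA 3 (slopes -0.59 to -0.47 with adjusted p = 0.0626 to 0.286, and -0.48 to -0.31 with adjusted p = 0.0626 to 0.559), whereas both arms of miR-223 passed without each library. miR-142b, which is called too, is encoded on the opposite strand and had the same count as miR-142a-3p in every library.
miR-142a-3p: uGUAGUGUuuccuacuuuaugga
miR-142b: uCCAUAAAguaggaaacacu
The second sequence is the reverse complement of bases within the first. Why their counts are the same is not stated in the labels or files, so the reads of each cannot be separated here. Counted once they leave 15 falls.

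Of the 8 miRNAs that respond to NF-κB or CREB, the transcription factors of inflammatory and of activity-driven genes, 5 fell, none rose and the median was -0.47. The pair miR-212 and miR-132 lies on the plus strand of chromosome 11 and shares a seed.
miR-132-3p: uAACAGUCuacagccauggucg
miR-212-3p: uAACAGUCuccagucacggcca
miR-132-5p had 151, 144, 112, 86.2, 54.3 and 42.9 TPM, against 26.2, 30.1 and 21.3 TPM in Control (slope -0.50 ± 0.10, adjusted p = 0.00157), falling at every step while no exposed library came as low as Control. miR-132-3p had 180, 87.1, 109, 88.5, 53.0 and 28.9 TPM, against 20.4, 23.4 and 19.0 TPM in Control (-0.55 ± 0.12, adjusted p = 0.00344). miR-212-3p had 35.9, 14.3, 15.2, 17.4, 9.89 and 7.02 TPM, against 2.26, 2.54 and 2.13 TPM in Control (-0.45 ± 0.14, adjusted p = 0.0434), and miR-212-5p did not pass (-0.40 ± 0.13, adjusted p = 0.0687). Of this cluster RJA 1 was thus the nearest exposed library to Control and still above it. miR-146b-5p, which restrains NF-κB signalling, had 2396, 2258, 1074, 849, 1005 and 534 TPM, against 466, 544 and 474 TPM in Control (-0.54 ± 0.11, adjusted p = 0.00316). Its paralog miR-146a-5p, with 2670, 1402, 1841, 1944, 1383 and 1180 TPM, against 658, 780 and 654 TPM in Control, did not pass (-0.17 ± 0.10, adjusted p = 0.391). All exposed libraries were above all Control libraries for miR-146a-5p, whatever their score. miR-155-5p, of activated lymphocytes and macrophages, had 224, 138, 154, 120, 90.3 and 27.6 TPM, against 32.7, 42.0 and 42.5 TPM in Control (-0.58 ± 0.13, adjusted p = 0.00574), and RJA 1 was below all Control libraries. Without RJA 1 none of these 5 passed, with slopes of -0.43 (miR-132-3p), -0.48 (miR-132-5p), -0.38 (miR-212-3p), -0.50 (miR-146b-5p) and -0.35 (miR-155-5p) and adjusted p of 0.0687 to 0.559. Without DSS 1, miR-155-5p (-0.53, adjusted p = 0.0561), miR-132-3p (-0.43, adjusted p = 0.0719) and miR-212-3p (-0.22, adjusted p = 0.567) did not pass. miR-132-3p was also lost without RJA 2 (-0.52, adjusted p = 0.0647), and miR-212-3p without RJA 2 or RJA 3 (-0.40 and -0.51; adjusted p = 0.287 and 0.0554).

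The lymphocyte list had 2 falls among 8 tested, with a median of -0.39. They were miR-155-5p, which the previous list also holds, and miR-342-3p, with 494, 252, 402, 275, 258 and 96.7 TPM, against 89.0, 127 and 82.3 TPM in Control (-0.42 ± 0.12, adjusted p = 0.0394). RJA 1 was within the Control range, and the other 5 exposed libraries were above it. The call of miR-342-3p was lost without DSS 1, RJA 1 or RJA 2 (-0.35, -0.23 and -0.47; adjusted p = 0.231, 0.809 and 0.0841). miR-150-5p, of mature lymphocytes, had 1505, 1112, 2098, 1025, 1065 and 145 TPM, against 368, 470 and 409 TPM in Control, and did not pass (-0.58 ± 0.19, adjusted p = 0.0687). It passed with no low-count filter (-0.56, adjusted p = 1.9e-05), in limma-voom (-0.69, adjusted p = 0.00866), with the score of miR-192, miR-194 and miR-215 alone (-0.55, adjusted p = 0.0414) and with the score on TMM-scaled counts (-0.60, adjusted p = 0.0396). Without RJA 1 its slope was -0.22 (adjusted p = 0.861). miR-150-5p was below all Control libraries in RJA 1 and above all of them in the other 5. miR-181a-5p had a slope of -0.11 ± 0.11 (adjusted p = 0.646).

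**Figure D4:**
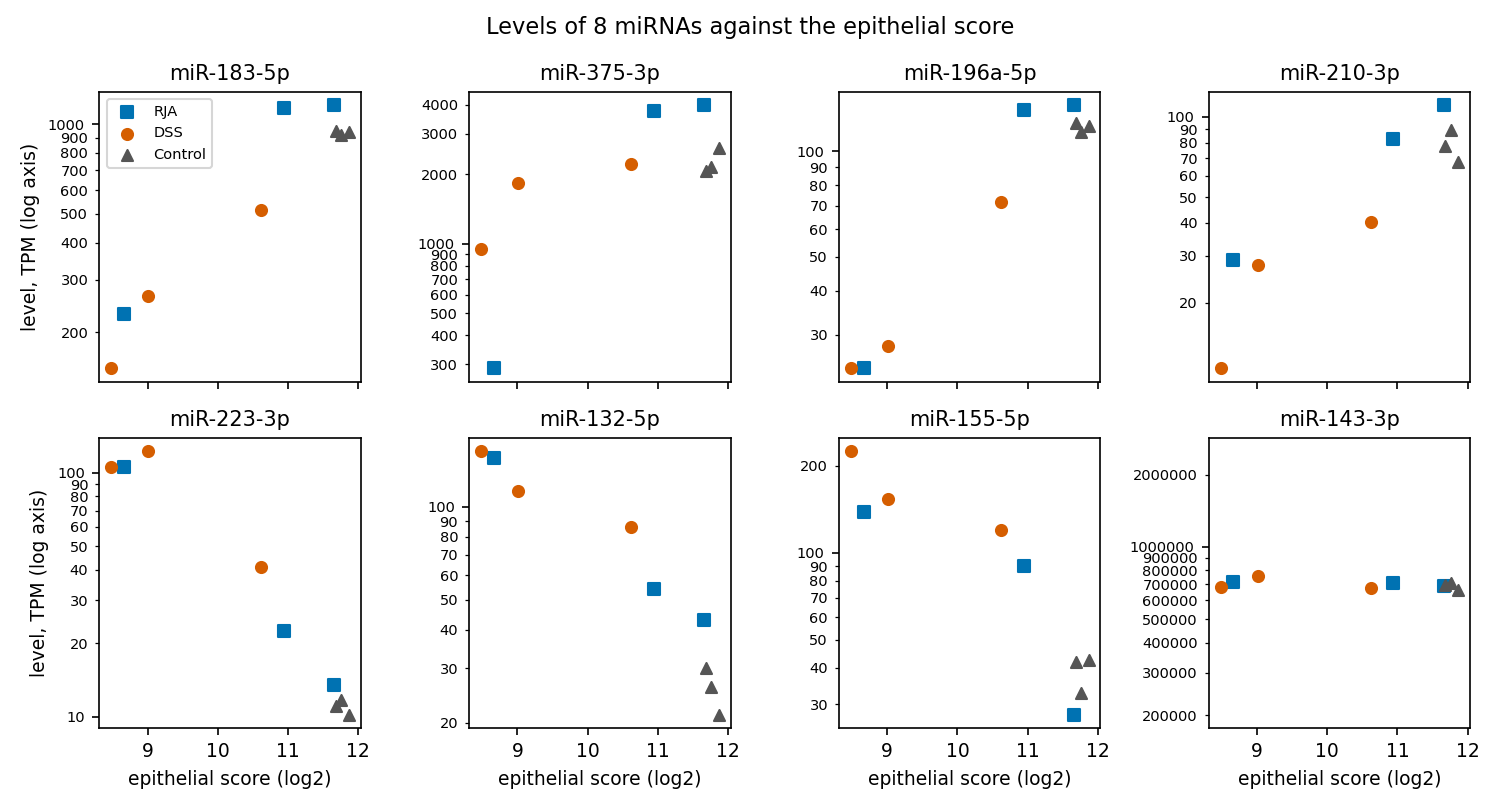
Level (TPM, log axes) of 8 miRNAs against the epithelial score in the 3 RJA, 3 DSS and 3 Control libraries, 1 point each. miR-183-5p, miR-375-3p, miR-196a-5p and miR-210-3p rose with the score, miR-223-3p, miR-132-5p and miR-155-5p fell, and miR-143-3p stayed between 672193 and 755456 TPM in the exposed libraries.

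Muscle miRNAs, the bulk of each library, had no call and slopes near the median of all tested. The 4 tested smooth muscle miRNAs had a median slope of 0.02, with miR-143-3p at 682756, 717732, 755456, 672193, 711045 and 687081 TPM, against 708887, 693418 and 663582 TPM in Control (0.02 ± 0.06), a direction that turned with library size as the only scaling (-0.02). miR-145a-5p, of the same transcript, was at -0.14 ± 0.10. The 5 striated muscle miRNAs had a median of 0.08, and miR-1a-3p stayed between 2642 and 3423 TPM in the exposed libraries, against 3017 to 3378 TPM in Control. The summed smooth muscle level thus changed little. TPM is a share of the counts, and miR-143-3p alone held 67.2 to 75.5% of them in the exposed libraries. A miRNA with such a share can rise little in TPM, so its steady level does not measure muscle content. The summed level of the myeloid list was 263, 219, 197, 121, 74.4 and 38.8 TPM, against 44.2, 57.8 and 75.9 TPM in Control.

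Among stromal lists, 1 of 5 mesenchymal miRNAs fell and the median was -0.16. It was miR-214-5p, of the miR-199a and miR-214 cluster of fibroblasts, with 93.2, 96.8, 74.3, 66.3, 49.9 and 39.9 TPM, against 36.2, 36.3 and 29.8 TPM in Control (-0.32 ± 0.10, adjusted p = 0.0394). Every exposed library was above every Control library. This call was lost without each library except DSS 3 (-0.32 to -0.25; adjusted p = 0.0899 to 0.415). The 3p arm, miR-214-3p, had a slope of -0.14 ± 0.10, and miR-199a-3p one of -0.16 ± 0.10. The list for the imprinted Dlk1-Dio3 cluster on chromosome 12, whose miRNAs are transcribed together, held 26 tested members, a part of the cluster, with negative slopes and a median of -0.18, of which 2 fell. Of the 30 tested miRNAs between miR-379-5p and miR-410-3p in this cluster, each within 10 kb of the next, 28 had negative slopes, and miR-379-3p (0.06 ± 0.23) and miR-666-5p (0.07 ± 0.24) had positive ones that did not pass. The 2 called falls were miR-541-5p, with 96.4, 103, 76.2, 63.2, 54.97 and 40.4 TPM, against 28.6, 34.5 and 35.3 TPM in Control (-0.33 ± 0.10, adjusted p = 0.0345), and miR-382-5p (-0.36 ± 0.11, adjusted p = 0.0434). The call of miR-541-5p was lost without each library except DSS 3 (-0.33 to -0.26; adjusted p = 0.0907 to 0.397), and that of miR-382-5p without any 1 library (-0.41 to -0.29; adjusted p = 0.0504 to 0.415).

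The other lists held no call. The 7 neuronal miRNAs all had negative slopes, with a median of -0.18, where 240 of the 410 tested had negative slopes. Among the 7, miR-129-5p and miR-129b-3p had nearly the same counts, at most 0.656% apart, and are not separate evidence. miR-9-5p had 651, 400, 439, 568, 334 and 268 TPM, against 250, 282 and 214 TPM in Control (-0.19 ± 0.11, adjusted p = 0.388). The 4 endothelial miRNAs had a median of -0.09, with miR-126a-3p at -0.11 ± 0.09. The 2 tested erythrocyte miRNAs pointed in opposite directions, miR-451a at -0.18 ± 0.09 and miR-486a-5p at 0.08 ± 0.13. The medians were 0.10 over 8 members of the miR-17/92 and miR-106b/25 clusters, which go with proliferation, 0.04 over 5 members of the miR-30 family, 0.00 over 5 of the miR-29 family and -0.07 over 9 of the let-7 family. Of the 40 calls, 8 lay outside every list. miR-196a-1-3p is given above, and miR-203b-5p, the antisense partner of miR-203-3p, had a slope of 0.77 ± 0.14; how reads were shared between a miRNA and its antisense partner is not stated in the labels or files. The other rises outside the lists were miR-6538 (0.66 ± 0.18), miR-1968-5p (0.56 ± 0.17) and miR-130b-5p (0.49 ± 0.13), each with a mean under 10 TPM. The other falls were miR-142b, miR-3535 (-0.47 ± 0.13) and miR-125b-1-3p (-0.41 ± 0.10). Without DSS 1, RJA 1, RJA 2 or RJA 3 the call of miR-3535 was lost (-0.53 to -0.28; adjusted p = 0.0626 to 0.681), and without DSS 1, RJA 1 or RJA 2 that of miR-6538 (0.49 to 0.70; adjusted p = 0.0879 to 0.344). The main arm miR-125b-5p, at 1711 to 3297 TPM in the exposed libraries, had a slope of -0.07 ± 0.10.

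The order of the libraries was also compared by ranks. Of the 237 other miRNAs with a mean of at least 10 TPM over the 6 libraries, 25 (10.5%) had a Spearman correlation with the score of 0.8 or more and 39 (16.5%) one of -0.8 or less. The mean level just inside the limit was 10.01 TPM (miR-30d-3p) and just outside it 9.999 TPM (miR-224-5p). Coefficients were positive for 85 of the 237, and their median was -0.26. miR-183-5p and miR-196a-1-3p had a rho of 1, and miR-132-5p, miR-223-5p and miR-3535 a rho of -1. Each of these 5 had an exact permutation p of 0.00278, the smallest that 720 pairings of 6 libraries allow, and an adjusted p of 0.132 over the 237. Their Pearson r was 0.97, 1.00, -0.97, -0.98 and -0.81 in the same order, with adjusted exact permutation p of 0.0790 for miR-183-5p and 0.0658 for the other 4. No correlation passed the adjustment by either coefficient, against 41 (rho) and 57 (r) at an unadjusted exact p under 0.05. With 720 pairings, a lone miRNA cannot pass an adjustment over the 237, and several must reach very small p together. The lack of passes therefore says little. Without RJA 1 and DSS 1, the libraries farthest from the median score, r was 0.94, 0.99, -0.93, -0.97 and -0.83. These 5 were picked for a perfect order, which the remaining libraries must keep, so the sign of r was fixed in advance. The 6 libraries fall on either side of the 1.61 gap, so these coefficients describe the order and do not test a gradient within either trio.

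Control served as the far point of the gradient. The 40 called miRNAs were chosen for following the order in which DSS 1 is lowest and RJA 1 highest, so their places against Control are a description. For the 24 miRNAs that rose, the Control mean lay within the range of the exposed libraries for 20 and above all of them for 4, against 4.88% of the 410 tested. RJA 1 was above all Control libraries for 15 of the 24, against 35.9% of all tested, and DSS 1 was below all Control libraries for all 24, against 23.9% of all tested. For the 16 that fell, the Control mean was below all exposed libraries for 10, against 23.7% of all tested, and within their range for 6. DSS 1 was above all Control libraries for all 16, as it was for 57.3% of all tested. RJA 1 was above all Control libraries for 8 of them and below all for 5, where 24.1% of all tested were below. Whether Control lay off the line through the exposed libraries was tested with exposure as a term beside the score in all 9 libraries (edgeR, 425 tested, 6 residual degrees of freedom). None passed (0%), against 31 at an unadjusted p under 0.05, and DESeq2 and limma-voom also called 0. No exposed library had a score within the Control range: the highest was 11.66 in RJA 1 and the lowest Control score was 11.68 in Control 2. The term thus rests on extending the line past the exposed scores, not on libraries matched in score. The lack of calls does not show that Control lay on the line. The median log2 difference at equal score was 0.05 over all tested, 0.21 over the 24 and 0.16 over the 16. The 3 with the smallest p were miR-6538 (1.69 ± 0.45), miR-212-3p (1.64 ± 0.41) and miR-451a (-1.04 ± 0.28), each with an adjusted p of 0.248. miR-146a-5p, which had no call for its slope, differed by 0.74 ± 0.24 (adjusted p = 0.557). With a separate term for each treatment in a fit of all 9 libraries, 5 miRNAs differed between DSS and Control and 0 between RJA and Control. Those 2 counts come from the same fit, with the same slope and Control libraries, and their difference was not tested.

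Treatment was the remaining term. At equal score, 1 of the 410 miRNAs differed between RJA and DSS (0.244%; edgeR, 3 residual degrees of freedom), against 36 at an unadjusted p under 0.05. It was miR-194-1-3p, higher in RJA by a log2 difference of 3.08 ± 0.45 (adjusted p = 0.00387), from 133, 145 and 44 reads in RJA 1 to 3 against 2, 14 and 13 reads in DSS 1 to 3. All 3 RJA libraries were above all 3 DSS libraries, RJA 3 included, although its score was lower than those of DSS 2 and DSS 3. The call was lost without RJA 1 (3.17, adjusted p = 0.186), RJA 2 (3.03, adjusted p = 0.240), RJA 3 (3.11, adjusted p = 0.599) or DSS 2 (3.02, adjusted p = 0.175). The 5p arm, miR-194-5p, is part of the score and is also encoded by the copy on chromosome 19. It had 4928, 3633 and 496 TPM in RJA 1 to 3 against 549, 2292 and 777 TPM in DSS 1 to 3, which overlapped. Relative to that arm, miR-194-1-3p stood at 0.00451, 0.00647 and 0.0144 in RJA 1 to 3, against 0.000497, 0.000946 and 0.00221 in DSS 1 to 3 and 0.00458, 0.00414 and 0.00502 in Control 1 to 3. The DSS libraries lay below the Control range and the RJA libraries overlapped it. miR-194-2-3p, from the copy on chromosome 19, differed by 1.07 ± 0.37 at equal score and did not pass (adjusted p = 0.333), nor did miR-200a-5p (0.82 ± 0.22, adjusted p = 0.130) or miR-210-3p (0.86 ± 0.29, adjusted p = 0.333). The number of calls was 16 without DSS 3 and 0 without RJA 1, RJA 2, RJA 3 or DSS 2, and DESeq2 called 6. None of the 410 slopes differed between RJA and DSS in a fit with a slope for each (smallest adjusted p = 0.998), in which 4 passed at an unadjusted p under 0.05.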

How the data were processed

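Small RNA from 9 mouse colon samples was sequenced. Per the labels' protocols, small RNA with ligated adaptors was amplified, and inserts of 18 to 40 bp were read from 1 end for 50 bases. Bowtie and DESeq appear in the submitters' processing notes with neither role nor version. The genome build, the annotation and the treatment of multiply matching reads: not given in the sources used here. Per the file headers, the authors deposited for each library a column of raw counts and a column of TPM. The deposited TPM is the share of a miRNA in its library's counts, scaled to 1000000, as recomputed from the counts. Of 1155 rows, 1126 have mouse miRNA names and 29 carry numbers of the authors' own.

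From the counts, slopes were fitted with edgeR 4.0.16 in R 4.3.3 (quasi-likelihood test, TMM, filterByExpr with a minimum count of 10). Adjustment was by Benjamini-Hochberg over the tested miRNAs other than the 8 of the score, which stayed in the fit. From the TPM, Spearman and Pearson correlations on log2(TPM + 1) were tested by exact two-sided permutation over all pairings of the 6 libraries. Standard errors of slopes are approximate, from the F statistic. The scripts were tested on simulated counts. Alternatives were DESeq2 1.42.0, limma-voom (limma 3.58.1), other scalings, filters and scores, a replicate block, treatment as a term, and each library left out. Near-identical miRNAs counted once and a fit to all 9 libraries were added after seeing the data. No replicates agreed within sampling noise. Even for Control 1 and Control 2, the most alike, squared differences were 37.0 times what counting error gives (chi-square per degree of freedom).

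The members and lists were chosen with earlier results of these data known. Named were the 8 score miRNAs and their other arms, the 10 steepest called slopes in each direction with a mean of at least 10 TPM, up to 4 members per list (2 by smallest p, 2 by abundance), the 5 most abundant miRNAs, those with a rho of 1 or -1 and, in the other fits, called miRNAs or else the 3 of smallest p. Called miRNAs under 10 TPM, those outside the lists and list members beyond this rule were named after their values were seen. RefSeq sequences (GRCm38.p6) matched 351 of the 418 tested and score miRNAs and 37 of the 40 called.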

Additional observations from a re-analysis of the deposited data

Results flagged for a closer look

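Among the 6 exposed libraries, the highest or lowest was set against its nearest neighbour for the score and for each named miRNA, 78 values in all, and 4 stood apart. Chance alone does this in about 1 of 20 such groups. miR-150-5p, a lymphocyte miRNA, was lowest in RJA 1, at a gap of 0.731 of the whole range. miR-31-5p, at 0 reads in RJA 1, had a gap of 0.650 there. miR-378c was lowest in DSS 1, with 226 TPM against 359 to 438 TPM in the other 5 and a gap of 0.698. miR-379-5p, of the Dlk1-Dio3 cluster, was highest in RJA 3, with 613 TPM against 301 to 389 TPM in the other 5 and a gap of 0.639.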

How the results depend on the processing

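Under other pseudocounts, scalings and sets of score miRNAs, the score of DSS 1 lay between -3.84 and -2.95 from the Control mean and that of RJA 1 between -0.20 and -0.02. All 40 called slopes kept their sign under every alternative that tested them. The count of falls was 10 with the score miRNAs left out of the totals and 10 with treatment as a term, and 2 to 16 with each library left out. Over all 9 libraries, an alternative chosen after seeing the data, 59 rose and 51 fell. Against Control at equal score, 5 miRNAs passed with no low-count filter and 0 to 2 with each library left out. With a separate term for each treatment, 5 passed for DSS against Control. Between RJA and DSS at equal score, 10 passed with no low-count filter, 6 with a mean of at least 10 TPM, 6 in DESeq2 and 0 to 16 with each library left out. The cause was not tested. Beside library removal, the calls least often kept were those of miR-212-3p and miR-382-5p, each lost in 6 other settings, and of miR-214-5p, lost in 5. With a mean of at least 100 TPM, 8 miRNAs had a rho of 0.8 or more and 13 one of -0.8 or less, where fewer miRNAs were tested. The count at -0.8 or less was 28 to 71 with each library left out, 71 without DSS 3 and 70 without RJA 3. Library size as the only scaling gave a median difference over all tested of 0.21 in place of 0.05 against Control, and of -0.13 in place of 0.02 between RJA and DSS.

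The replicate numbers were not taken to pair the samples. Same-numbered RJA and DSS libraries deviated from their group means with correlations of -0.51, 0.26 and -0.02. With so few libraries, these correlations cannot show whether a number marks anything shared. With the replicate number as a block, 27 slopes rose and 14 fell, 0 miRNAs differed from Control and 2 differed between RJA and DSS. Under the block miR-7a-5p (-0.46, adjusted p = 0.0488) and miR-150-5p (-0.94, adjusted p = 0.00121) passed, and the slope of miR-194-1-3p was 2.04.

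Only slopes near 0 that had not passed turned their direction. With library size alone these were miR-143-3p (-0.018), miR-133a-3p (-0.010), miR-25-3p (-0.024) and miR-30a-5p (-5.04e-05). With treatment as a term they were miR-143-3p (-0.0091) and miR-181a-5p (0.00092), with the block miR-29a-5p (-0.039) and miR-30a-5p (-0.038), and with the score miRNAs left out of the totals miR-92a-3p (0.013). With each library left out, slopes ran from -0.13 to 0.0039 (miR-21a-5p), -0.028 to 0.14 (miR-133a-3p), -0.069 to 0.050 (miR-29a-3p), -0.0034 to 0.26 (miR-486a-5p), -0.051 to 0.055 (miR-92a-3p), -0.0056 to 0.075 (miR-25-3p), -0.075 to 0.0076 (let-7f-5p), -0.0012 to 0.17 (miR-30a-5p), -0.19 to 0.012 (miR-152-3p), -0.19 to 0.0028 (miR-10b-5p) and -0.22 to 0.0089 (miR-379-5p). Depth limits the scarcest: miR-141-3p rests on 20 to 110 reads and miR-200c-5p on 1 to 16 in the exposed libraries.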
